A study of Mus musculus with 6 samples.

Results

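The subunits of the mitochondrial respiratory chain and of the ATP synthase were examined in coronary endothelial cells (ECs) of the embryonic mouse heart. Members were protein-coding genes chosen by symbol. They comprised the mitochondrial genes that begin with mt-Nd, mt-Co, mt-Cytb or mt-Atp and the nuclear genes of the Nduf, Sdh, Uqcr, Cox4 to Cox8 and Atp5 series. Of 102 matching genes, 97 reached 10 counts in 2 or more of the 6 libraries, out of 16296 genes at that minimum and 55416 genes in the table. Of these 97, 13 are encoded by mitochondrial DNA and 84 by nuclear DNA. The other 5 were *Cox7b2*, *Cox8c*, *Ndufb11b* and a second *Atp5o* entry, with 0 counts in every library, and *Cox8b*, with 0, 0 and 1 counts in ControlΔEC and 11, 1 and 4 in Wt1KOΔEC. Only *mt-Nd4l*, *Cox6b2*, *Cox7a1* and *Cox5b-ps* among the members fell below 10 counts in any library. The symbol rule also took in 3 entries that are not subunits of the complexes as textbooks list them, namely *Ndufa4l2*, *Cox7a2l* and *Cox5b-ps*. These are set apart in the grouping by complex but count among the 84 nuclear members throughout.

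The cells came from heart ventricles at E15.5 and were sorted for membrane GFP. Both genotypes carried *Pdgfb*-CreERT2/+ and *R26*-mTmG/+ and came from the same litters, and the pregnant females received 75 mg/kg tamoxifen by oral gavage over E11.5 to E13.5. Wt1KOΔEC embryos were *Wt1*-LoxP/LoxP and ControlΔEC embryos *Wt1*-+/+, with 3 biological replicates of each. The Cre is driven by *Pdgfb*, and GFP marks cells in which Cre has acted on the reporter, whatever the state of the *Wt1* allele. In the comparison of genotypes, positive log2 fold changes stand for higher values in Wt1KOΔEC. Library identifiers run with genotype, so any handling batch and the genotype cannot be told apart.

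The respiratory chain passes electrons from NADH and succinate through complexes I and II, coenzyme Q, complex III and cytochrome c to complex IV, where oxygen is reduced, and the proton gradient this builds drives the ATP synthase, complex V. Complexes I, III, IV and V are mosaics of subunits made inside the mitochondrion from mitochondrial DNA and subunits made in the cytosol from nuclear genes, whereas complex II is wholly nuclear encoded. Mitochondrial DNA is transcribed as long polycistronic RNAs that are cut into separate messages, while the nuclear genes are transcribed one by one, many of them under the nuclear respiratory factors NRF1 and GABPA. ECs are known to draw much of their ATP from glycolysis.

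Most mitochondrial messages are cut out between transfer RNAs, but a few genes share bases with the next one. The annotated *mt-Atp8* gene ends 43 bases inside *mt-Atp6*, and *mt-Nd4l* ends 7 bases inside *mt-Nd4*. No transfer RNA gene lies between the genes of either pair, so their counts need not stand for separate messages. Both short genes are shown here because their values departed from those of the longer mitochondrial genes (GRCm39, plus strand, capitals mark the bases shared with the next gene).
*mt-Atp8*, chrM:7766-7969: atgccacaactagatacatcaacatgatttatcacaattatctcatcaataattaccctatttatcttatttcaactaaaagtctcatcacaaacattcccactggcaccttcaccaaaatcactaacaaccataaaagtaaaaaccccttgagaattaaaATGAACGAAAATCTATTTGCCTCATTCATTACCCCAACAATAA
*mt-Nd4l*, chrM:9877-10173: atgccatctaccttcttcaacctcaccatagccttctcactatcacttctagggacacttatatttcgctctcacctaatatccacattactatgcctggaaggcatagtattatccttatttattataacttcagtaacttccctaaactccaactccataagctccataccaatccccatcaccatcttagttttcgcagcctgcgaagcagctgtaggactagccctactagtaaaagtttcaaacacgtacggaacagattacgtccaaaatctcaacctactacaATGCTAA
A further 14 bases are shared by *mt-Nd5* and *mt-Nd6*, which lie on opposite strands, and 1 base by *mt-Atp6* and *mt-Co3*. The library kit does not keep strand, so reads over *mt-Nd6* cannot be told apart from transcripts of the other strand.

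Library totals ran from 26037324 to 44779020 counts. *Wt1* itself was at 145, 109.5 and 149 CPM (counts scaled to the library total, with TMM factors) in the ControlΔEC libraries and at 14.0, 18.4 and 21.3 CPM in the Wt1KOΔEC libraries (edgeR log2 fold change -2.91, adjusted p = 0.00319). All 9 endothelial markers were detected, with a summed level of 5060.0 to 6209 CPM in ControlΔEC and 5041 to 5837 CPM in Wt1KOΔEC. The cytosolic 18S rRNA gene *Rn18s* took 14.3, 13.2 and 15.3% of counts in ControlΔEC and 26.5, 23.0 and 21.1% in Wt1KOΔEC.

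Most messages encoded by mitochondrial DNA were lower in Wt1KOΔEC, and nuclear-encoded subunits were on balance slightly higher, although no member passed the edgeR quasi-likelihood test at an adjusted p under 0.05 with a log2 fold change beyond 0.58. Across all genes 12 of 16296 passed, which is 0.0736%. The smallest adjusted p was 0.140 among the mitochondrial members (*mt-Co1*) and 0.114 among the nuclear members (*Atp5g2*). At an unadjusted p under 0.05, 8 of 13 mitochondrial members were lower and 0 higher, or 61.5% lower against 7.12% of all genes. Of the nuclear members, 21 of 84 were higher and 0 lower, or 25.0% higher against 5.96% of all genes. DESeq2 called 12 members at the same thresholds. Of these, 7 were mitochondrial and lower (53.8%, against 2.54% of all genes) and 5 nuclear and higher (5.95%, against 2.14%). With limma-voom 0 members were called, against 8 of all 16296 genes. In bulk samples such as these, fewer cells of a type and less RNA per cell cannot be told apart.

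The median log2 fold change was -0.96 over the mitochondrial members, 0.28 over the nuclear members and -0.03 over all genes tested. In all, 78 of 84 nuclear members (92.9%) had a fitted value above 0, compared with 48.0% of all genes. When libraries were scaled by their total counts alone, the median of all genes shifted to -0.18 and that of the nuclear members to 0.14, which left them 0.32 above all genes, as against 0.31 with TMM, and 68 of 84 were then above 0. The 10 mitochondrial members of at least 500 bases were below 0 under every scaling tried. Groups that did not overlap, with all 3 libraries of one genotype above all 3 of the other, were seen for 37 nuclear members, all higher in Wt1KOΔEC (44.0%, against 10.3% of all genes). Among the mitochondrial members, 7 of 13 were lower in Wt1KOΔEC without overlap (53.8%, against 8.97% of all genes) and 1, *mt-Nd4l*, was higher.

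**Figure D1:**
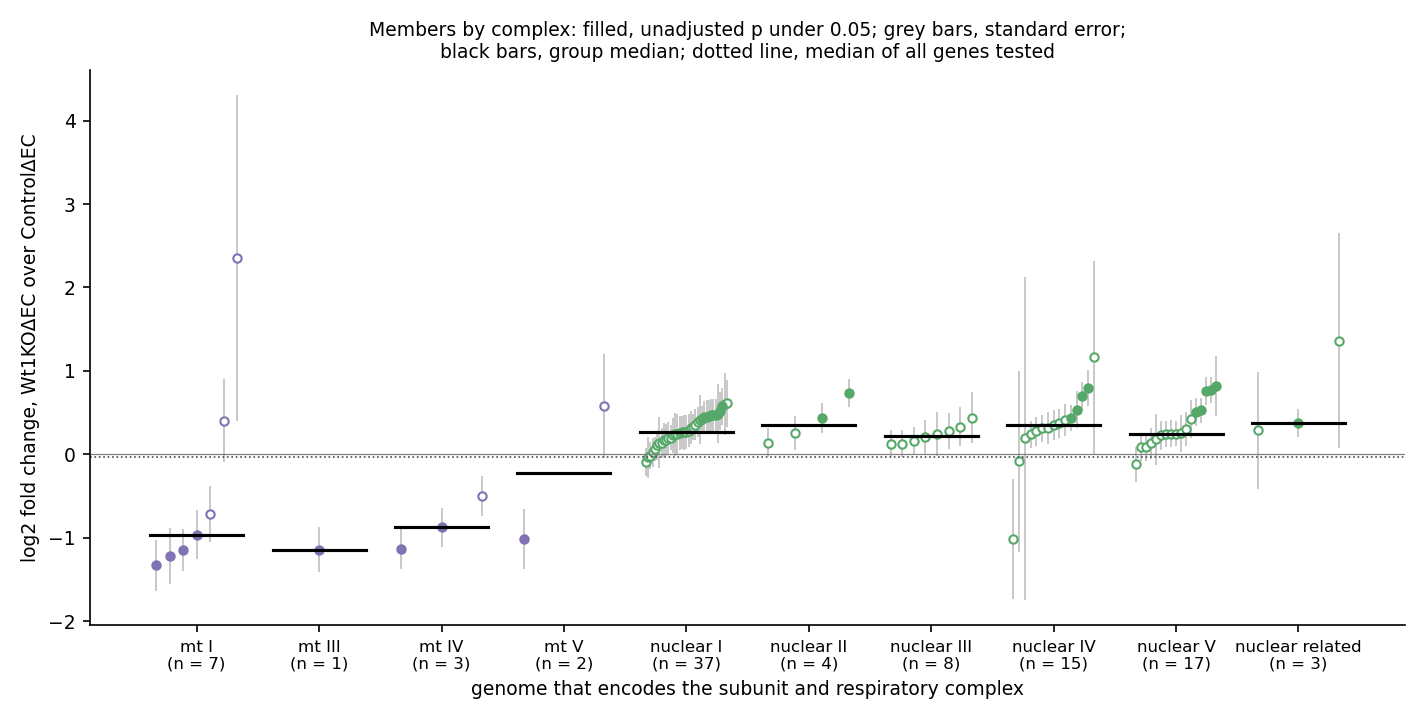
Fitted log2 fold change (edgeR, Wt1KOΔEC over ControlΔEC) of each of the 97 members by complex, with mitochondrial and nuclear members apart; filled points had an unadjusted p under 0.05 and open points did not. The 10 longer mitochondrial messages lie between -1.33 and -0.50, and 78 of 84 nuclear members lie above 0.

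Complex I messages held the 3 largest negative fold changes of the mitochondrial members. *mt-Nd1*, a core membrane subunit of the NADH dehydrogenase, was at 3838, 3899 and 2389.6 CPM in ControlΔEC and 839, 1206 and 1984 CPM in Wt1KOΔEC. All 3 Wt1KOΔEC libraries were below the lowest ControlΔEC library, and the log2 fold change was -1.33 (SE 0.31, edgeR adjusted p = 0.170, DESeq2 adjusted p = 0.00163). *mt-Nd4*, a proton-pumping subunit, was at 2529.9, 2252 and 1649 CPM in ControlΔEC and 517, 806 and 1443 CPM in Wt1KOΔEC. It showed the same separation, with a log2 fold change of -1.22 (SE 0.34, edgeR adjusted p = 0.217, DESeq2 adjusted p = 0.0104). *mt-Nd5*, another pumping subunit, was at 1347, 1363 and 1149 CPM in ControlΔEC and 363, 593 and 788 CPM in Wt1KOΔEC. Its groups stood far apart, and its log2 fold change of -1.15 had the second smallest edgeR p of the mitochondrial members (SE 0.25, adjusted p = 0.153, DESeq2 adjusted p = 0.00116). *mt-Nd2* differed less, at 410.0, 371 and 279.6 CPM in ControlΔEC and 117, 158 and 270.3 CPM in Wt1KOΔEC, and the third Wt1KOΔEC library came close to the lowest ControlΔEC library (log2 fold change -0.96, edgeR adjusted p = 0.243, DESeq2 adjusted p = 0.0335). *mt-Nd6*, the one member on the other strand, was at 26.3, 29.3 and 31.3 CPM in ControlΔEC and 10.6, 15.3 and 27.1 CPM in Wt1KOΔEC, and the groups overlapped (log2 fold change -0.72, unadjusted p = 0.0603).

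For complex III, cytochrome b (*mt-Cytb*) is the one subunit from mitochondrial DNA. It was at 4984, 5213 and 4006 CPM in ControlΔEC and at 1284, 2178 and 2971 CPM in Wt1KOΔEC. The groups did not overlap, and the log2 fold change was -1.14 (SE 0.27, edgeR adjusted p = 0.171, DESeq2 adjusted p = 0.00302). *mt-Co1*, which carries the heme-copper centre of complex IV where oxygen is bound, was the most abundant member, at 13002, 13333 and 10202 CPM in ControlΔEC and 3531, 5823 and 7341 CPM in Wt1KOΔEC. Every Wt1KOΔEC library lay below every ControlΔEC library (log2 fold change -1.13, SE 0.24, edgeR adjusted p = 0.140, DESeq2 adjusted p = 0.00123). *mt-Co2*, which takes electrons from cytochrome c, was at 1102, 1432 and 1717 CPM in ControlΔEC and 719, 988 and 1307 CPM in Wt1KOΔEC. Its groups overlapped, and it had the smallest difference of the longer messages (log2 fold change -0.50, SE 0.24, edgeR adjusted p = 0.425). *mt-Co3*, the other large complex IV subunit, was at 251, 177 and 349 CPM in ControlΔEC and at 137, 145 and 141 CPM in Wt1KOΔEC, without overlap (log2 fold change -0.88, edgeR adjusted p = 0.209, DESeq2 adjusted p = 0.0117). In complex V, *mt-Atp6*, the subunit that forms the proton path beside the rotor, was at 4080.1, 3923 and 2837 CPM in ControlΔEC and 975, 1434 and 2954 CPM in Wt1KOΔEC. The third Wt1KOΔEC library exceeded the third ControlΔEC library, so the groups overlapped (log2 fold change -1.02, SE 0.36, edgeR adjusted p = 0.283, DESeq2 adjusted p = 0.0603).

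The Wt1KOΔEC libraries were uneven among themselves. The first replicate had the lowest value of its group for 10 of the 10 longer mitochondrial messages, and the third had the highest for 9 of 10. Among ControlΔEC libraries the third was lowest for 7 of 10. With each library left out in turn, the median of the mitochondrial members ran from -1.36 (without the third Wt1KOΔEC replicate) to -0.73 (without the first), and the number lower at an unadjusted p under 0.05 ran from 7 to 10.

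**Figure D2:**
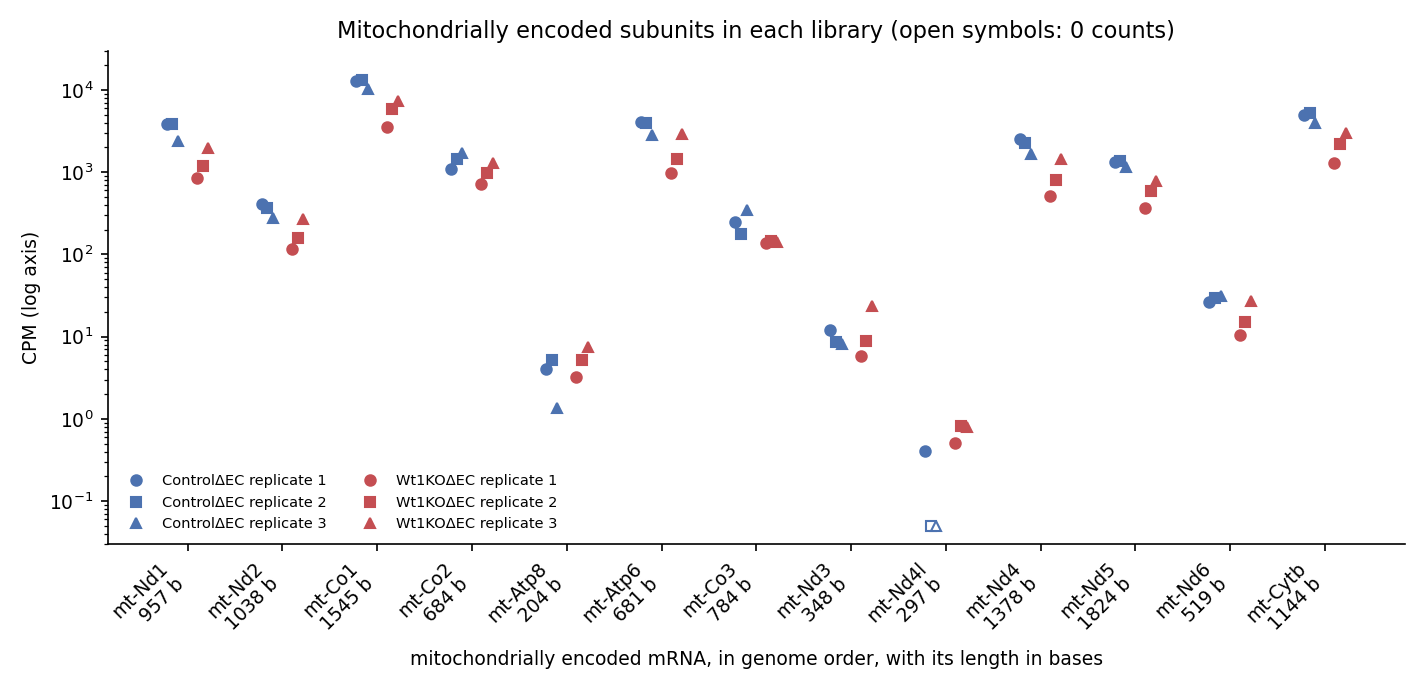
CPM (log scale) of each mitochondrially encoded gene in the 3 ControlΔEC and the 3 Wt1KOΔEC libraries, in order along the mitochondrial genome. Open points at the base stand for 0 counts. *mt-Co1* lies between 10202 and 13333 CPM in ControlΔEC and between 3531 and 7341 CPM in Wt1KOΔEC, whereas *mt-Nd3*, *mt-Nd4l* and *mt-Atp8* have overlapping or very low values.

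The 3 shortest mitochondrial genes, of under 500 bases, had fitted values above 0. *mt-Nd3* was at 12.2, 8.67 and 8.22 CPM in ControlΔEC and 5.88, 8.93 and 23.7 CPM in Wt1KOΔEC (log2 fold change 0.40, unadjusted p = 0.437). *mt-Atp8* was at 4.09, 5.21 and 1.35 CPM in ControlΔEC and 3.27, 5.22 and 7.48 CPM in Wt1KOΔEC (log2 fold change 0.58, unadjusted p = 0.375). Both overlapped between genotypes, and the third Wt1KOΔEC library was the highest in each. *mt-Nd4l* had 18, 0 and 0 counts in ControlΔEC and 20, 29 and 20 in Wt1KOΔEC, so its fitted value of 2.35 rests on 87 counts in all (unadjusted p = 0.258).

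On a per-length scale, the counts assigned to mitochondrial genes spanned a wide range within the ControlΔEC libraries. Mean levels were 7883 CPM per kb for *mt-Co1*, 5306 for *mt-Atp6*, 4138 for *mt-Cytb* and 3527 for *mt-Nd1*. They were 330.1 CPM per kb for *mt-Co3*, 27.8 for *mt-Nd3*, 17.4 for *mt-Atp8* and 0.451 for *mt-Nd4l*. These levels rest on the counts as deposited. For *mt-Atp8* and *mt-Nd4l*, which overlap *mt-Atp6* and *mt-Nd4*, they need not be levels of separate messages. For *mt-Co3*, *mt-Nd3* and *mt-Nd4l* most of the joint counts stood on near-identical pseudogene copies, described below. The most abundant nuclear member per length was *Atp5b*, the catalytic beta subunit of the ATP synthase, at 935 CPM per kb in ControlΔEC and 1096 in Wt1KOΔEC. Next came *Cox4i1* at 415 and *Atp5a1* at 292 CPM per kb in ControlΔEC. With counts pooled over the libraries of a genotype, *mt-Co1* took 41.4% of the mitochondrial message counts in ControlΔEC and 41.0% in Wt1KOΔEC. *mt-Cytb* took 16.1% and 15.7%, *mt-Nd1* 11.7% and 9.72%, and *mt-Co2* 4.58% and 7.44%. The shares of *mt-Nd3* (0.0326% and 0.0886%) and *mt-Atp8* (0.0129% and 0.0388%) were small but higher in Wt1KOΔEC. Counts on pseudogene copies are not part of these shares.

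Nuclear copies of mitochondrial DNA bear on these levels. A run of pseudogenes on chromosome 1 (GRCm39), between positions 24650616 and 24655278, holds copies of *mt-Nd4*, *mt-Nd4l*, *mt-Nd3*, *mt-Co3*, *mt-Atp6*, *mt-Co2* and *mt-Co1* that are at least 97% identical to the genes. In the deposited counts, 622154 counts stood on *Gm28437*, which is 100% identical to *mt-Co3* over 783 bases, against 44111 on *mt-Co3* itself, so 93.4% of their joint counts were on the copy. The share was 97.8% for *mt-Nd4l*, 73.7% for *mt-Nd3*, 15.9% for *mt-Co2*, 6.60% for *mt-Atp6* and 4.18% for *mt-Co1*. For *mt-Co2* it varied by library, at 31.0, 26.6 and 0.0162% in ControlΔEC and 0, 4.16 and 2.50% in Wt1KOΔEC. The true levels of these genes are therefore uncertain in the table as deposited. With the counts of each copy added to its gene, a step chosen after the data were seen, *mt-Co2* was at 1598, 1950.3 and 1717 CPM in ControlΔEC and 719, 1030.4 and 1341 CPM in Wt1KOΔEC. Its groups then no longer overlapped, and its log2 fold change was -0.77 (edgeR adjusted p = 0.217). *mt-Atp6* was then at 4459.6, 4151 and 3159 CPM in ControlΔEC and 1021, 1563 and 2954 CPM in Wt1KOΔEC. Its groups also no longer overlapped (log2 fold change -1.09, edgeR adjusted p = 0.243). Merged *mt-Co3* was at 3952, 3949 and 3359 CPM in ControlΔEC and 1348, 2153 and 2699 CPM in Wt1KOΔEC (log2 fold change -0.86). *mt-Nd3* and *mt-Nd4l* changed sign to -0.31 and -0.27. *mt-Atp8*, for which no annotated copy was found, stayed the one mitochondrial member above 0. It overlaps *mt-Atp6*, which was below 0, and how counts were split between these overlapping genes was not tested. Only annotated transcripts were searched, so an unannotated copy of *mt-Atp8* would have been missed.

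**Figure D3:**
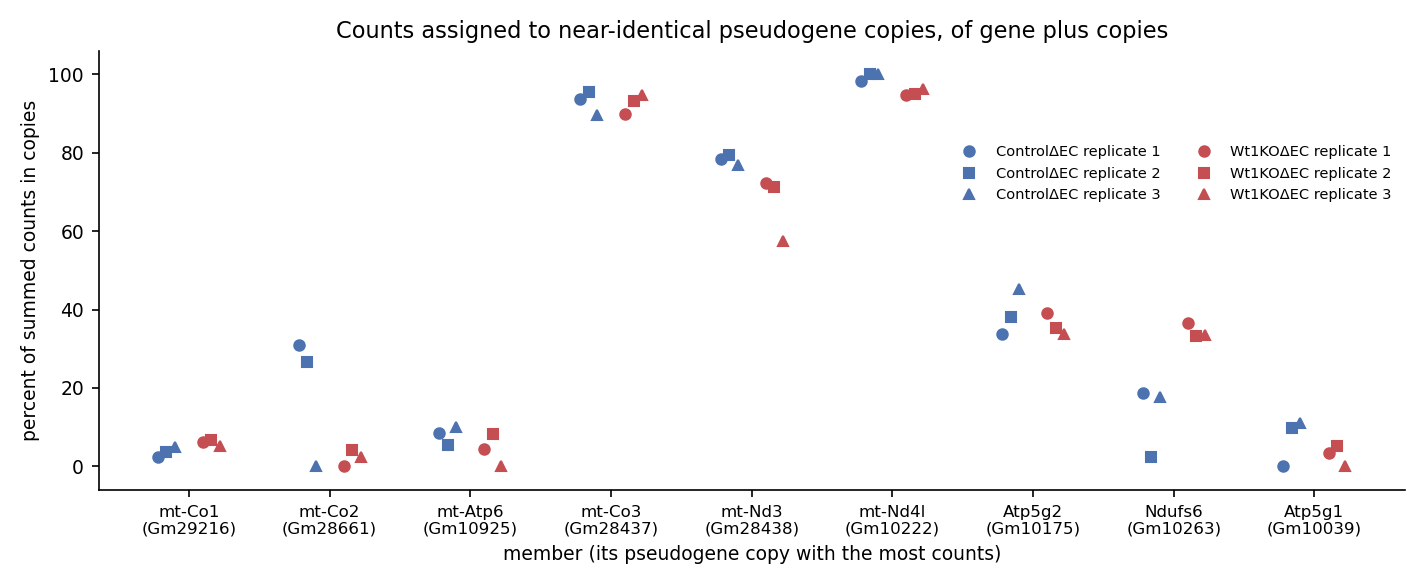
Percent of the joint counts of a member and its near-identical pseudogene copies that the deposited table places on the copies, with 1 point per library (3 ControlΔEC, 3 Wt1KOΔEC). *mt-Co3* lies at 89.6% to 95.5% in every library, while *mt-Co2* ranges from 0 to 31.0%.

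As a share of all counts, the 13 mitochondrial members took 3.16, 3.53 and 2.61% in ControlΔEC and 0.778, 1.29 and 1.87% in Wt1KOΔEC. The highest Wt1KOΔEC library was below the lowest ControlΔEC library, and the means were 3.10% ± 0.463 (SD, n = 3) and 1.31% ± 0.546 (SD, n = 3), a ratio of 0.423. Over protein-coding counts alone the ratio was 0.464, and with the pseudogene copies added to the messages it was 0.429 of all counts. The 2 mitochondrial rRNAs, *mt-Rnr1* and *mt-Rnr2*, together took 3.25, 3.08 and 2.60% of counts in ControlΔEC and 0.902, 1.49 and 2.696% in Wt1KOΔEC. Their groups overlapped, with the third Wt1KOΔEC library inside the ControlΔEC range (edgeR adjusted p = 0.582 for *mt-Rnr1* and 0.395 for *mt-Rnr2*). *Rn18s* moved the other way over the same libraries, at a log2 fold change of 0.87 (edgeR adjusted p = 0.0650), and was highest in the first Wt1KOΔEC library, where mitochondrial messages were lowest. Its part in the result was not tested.

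The 84 nuclear members together took 0.880, 0.743 and 0.833% of all counts in ControlΔEC and 0.909, 0.867 and 0.897% in Wt1KOΔEC. Their groups overlapped on this scale (ratio 1.09). Over protein-coding counts alone, where *Rn18s* has no part, they took 1.09, 0.908 and 1.04% and 1.28, 1.17 and 1.20%, without overlap (ratio 1.20). The counts of mitochondrial messages per count of nuclear members, a ratio that no scaling of libraries can change, were 3.59, 4.75 and 3.13 in ControlΔEC and 0.856, 1.48 and 2.09 in Wt1KOΔEC. The highest Wt1KOΔEC value was below the lowest ControlΔEC value.

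**Figure D4:**
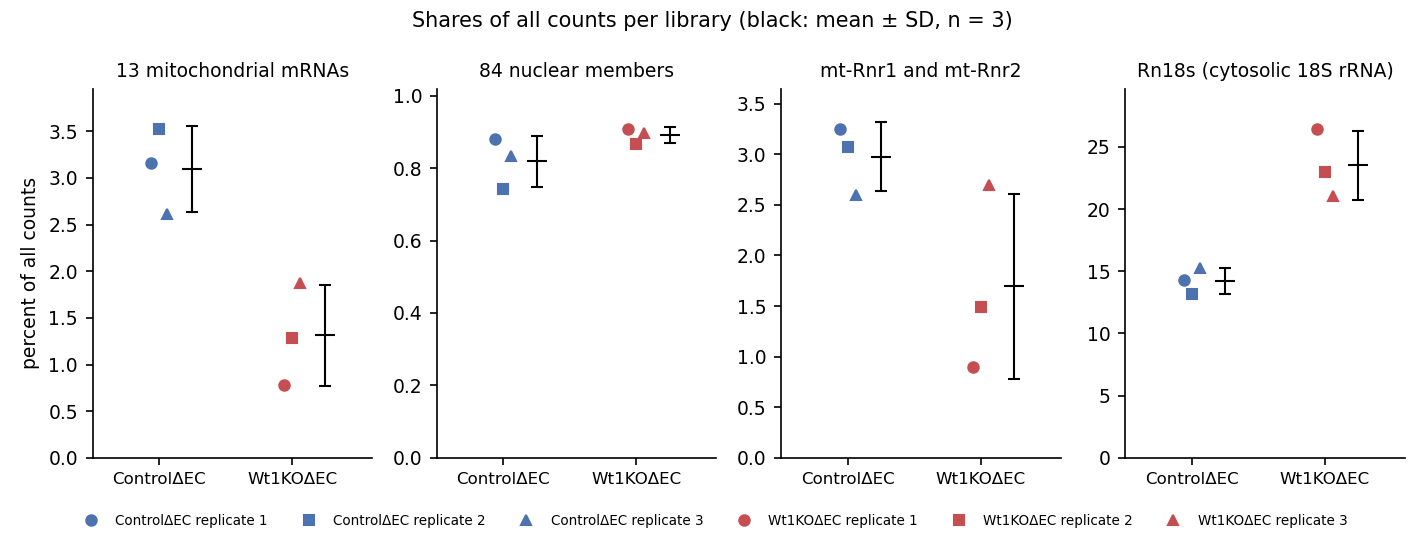
Percent of all counts per library from the mitochondrial messages, the nuclear members, the mitochondrial rRNAs and *Rn18s*, with the mean ± SD in black (n = 3 per genotype). Mitochondrial messages take 2.61% to 3.53% in ControlΔEC and 0.778% to 1.87% in Wt1KOΔEC, while the nuclear members stay between 0.743% and 0.909% in all 6 libraries.

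Summed by complex, the Wt1KOΔEC means of the mitochondrial parts were lower and those of the nuclear parts higher in each complex. Complex I messages from mitochondrial DNA summed to 8163, 7923 and 5507 CPM in ControlΔEC and 1853, 2788 and 4536 CPM in Wt1KOΔEC, without overlap. Its 37 nuclear subunits summed to 1798, 1529 and 1698 CPM and 2031, 1895 and 1979 CPM, again without overlap but in the other direction. For complex IV the mitochondrial sum was 14355, 14942 and 12267 CPM in ControlΔEC and 4387, 6956 and 8789.6 CPM in Wt1KOΔEC, and the sum of 15 nuclear subunits was 1108, 824 and 982 CPM and 1295, 1251 and 1252 CPM. Neither complex IV sum overlapped between genotypes. The mitochondrial sum of complex V overlapped (a mean 0.496 times that of ControlΔEC). The nuclear sums of complexes II and V did not overlap, with Wt1KOΔEC means 1.22 and 1.20 times the ControlΔEC means. The nuclear sum of the 8 complex III members did overlap (1.14 times). All these sums rest on TMM scaling and leave out counts on pseudogene copies. With its copy added, *mt-Atp6*, which made up nearly all of the mitochondrial complex V sum, did not overlap. As a share of all counts the nuclear members together overlapped, as given above.

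The 5 nuclear members with the largest positive fold change among those at 10 CPM or more were *Cox7c*, *Atp5g2*, *Atp5g1*, *Sdhd* and *Cox8a*, and these were also the 5 that DESeq2 called. The promoters of 4 of them are shown because each holds a motif of a factor known to act on respiratory genes (RefSeq, GRCm38.p6, 250 bases before to 50 after the start of the gene, 5′ to 3′ on the strand of the gene, capitals mark motifs).
*Atp5g2* promoter, chr15:102670998-102671297, minus strand: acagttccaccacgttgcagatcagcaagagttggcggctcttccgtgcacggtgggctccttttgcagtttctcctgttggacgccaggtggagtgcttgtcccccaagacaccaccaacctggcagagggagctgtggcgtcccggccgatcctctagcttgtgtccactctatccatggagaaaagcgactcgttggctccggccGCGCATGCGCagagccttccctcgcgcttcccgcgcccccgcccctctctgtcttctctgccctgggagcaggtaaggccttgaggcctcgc
*Cox7c* promoter, chr13:86046746-86047045, minus strand: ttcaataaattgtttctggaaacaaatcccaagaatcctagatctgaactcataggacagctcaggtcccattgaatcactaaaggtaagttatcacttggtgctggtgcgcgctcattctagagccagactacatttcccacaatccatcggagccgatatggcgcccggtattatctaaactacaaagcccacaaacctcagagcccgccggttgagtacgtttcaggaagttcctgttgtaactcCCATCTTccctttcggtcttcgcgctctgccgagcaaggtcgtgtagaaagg
*Cox8a* promoter, chr19:7217567-7217866, minus strand: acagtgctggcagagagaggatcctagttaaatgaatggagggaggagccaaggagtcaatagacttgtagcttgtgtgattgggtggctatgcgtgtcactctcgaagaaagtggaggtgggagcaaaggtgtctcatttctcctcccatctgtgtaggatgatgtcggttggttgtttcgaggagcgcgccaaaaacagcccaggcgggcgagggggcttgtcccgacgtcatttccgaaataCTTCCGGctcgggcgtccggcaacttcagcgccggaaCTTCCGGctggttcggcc
*Sdhd* promoter, chr9:50603800-50604099, minus strand: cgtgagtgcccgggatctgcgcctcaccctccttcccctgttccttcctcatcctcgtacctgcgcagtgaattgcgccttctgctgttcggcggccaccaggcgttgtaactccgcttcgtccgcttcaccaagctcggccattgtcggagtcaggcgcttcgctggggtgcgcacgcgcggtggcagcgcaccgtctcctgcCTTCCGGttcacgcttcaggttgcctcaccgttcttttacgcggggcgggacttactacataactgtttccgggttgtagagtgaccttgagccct
The motifs searched on both strands were GCATGCGC for NRF1, CCGGAAG for GABPA, AAGATGG for YY1 and GCGTGGG for the EGR-like motif of WT1. In *Atp5g2* the run in capitals holds the NRF1 motif on both strands, which overlap. *Cox7c* holds the YY1 motif, *Cox8a* 2 GABPA motifs and *Sdhd* 1, all on the minus strand of the sequence as printed. The *Atp5g1* promoter had no match to these letters in this window. RefSeq promoters of full length were matched for 68 of the 84 nuclear members. Of these 68, 10 (14.7%) held the NRF1 motif, 17 (25.0%) the GABPA motif and 11 (16.2%) the YY1 motif. The shares over 27025 genes were 3.05%, 9.93% and 7.28%. Those are all genes with a RefSeq promoter of full length, whether or not they were expressed here. At least 1 of these 3 motifs was in 32 of 68 (47.1%) and in 18.6% of all genes. The WT1 motif was in 5 of 68 (7.35%), namely *Atp5h*, *Cox5a*, *Ndufb3*, *Ndufs6* and *Ndufv3*, and in 5.74% of all genes.

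In complex I, nuclear subunits are either core subunits, which form the arm that holds the flavin and iron-sulphur clusters, or accessory subunits around them. The 7 core subunits had a median log2 fold change of 0.20 with 1 at an unadjusted p under 0.05, and the 30 accessory subunits 0.28 with 8. *Ndufs1*, the largest iron-sulphur subunit, was at 103, 88.5 and 123 CPM in ControlΔEC and 107, 104 and 101 CPM in Wt1KOΔEC. All 3 Wt1KOΔEC libraries lay inside the ControlΔEC range, with a log2 fold change of -0.01 and a 95% interval of -0.39 to 0.36. *Ndufv1*, which binds NADH, was at 129.7, 90.6 and 114 CPM and 123, 123 and 114 CPM, also with overlap (log2 fold change 0.11, 95% interval -0.27 to 0.49). *Ndufs3*, another core subunit, was at 47.1, 47.9 and 46.1 CPM in ControlΔEC and 68.0, 63.4 and 57.4 CPM in Wt1KOΔEC, without overlap and with the smallest p of the core subunits (log2 fold change 0.42, edgeR adjusted p = 0.315). The 8 accessory subunits at an unadjusted p under 0.05 were *Ndufa1*, *Ndufa2*, *Ndufa6*, *Ndufa11*, *Ndufa12*, *Ndufa13*, *Ndufb3* and *Ndufs5*, with log2 fold changes between 0.45 and 0.58. *Ndufv2* (-0.09) and *Ndufb8* (-0.03) were, with *Ndufs1*, the 3 nuclear complex I members below 0, and all 3 overlapped between genotypes.

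Complex II, succinate dehydrogenase, has 4 subunits. *Sdhd*, a membrane anchor, was at 59.1, 54.2 and 70.9 CPM in ControlΔEC and 112, 90.3 and 105 CPM in Wt1KOΔEC. All Wt1KOΔEC libraries lay above all ControlΔEC libraries, with a log2 fold change of 0.74 (SE 0.17, edgeR adjusted p = 0.170, DESeq2 adjusted p = 0.00340). The other anchor, *Sdhc*, was at 43.5, 34.2 and 40.3 CPM in ControlΔEC and 56.2, 48.0 and 55.6 CPM in Wt1KOΔEC, also without overlap (log2 fold change 0.44, edgeR adjusted p = 0.348). The catalytic pair differed less. *Sdha*, the flavoprotein, had a log2 fold change of 0.14 (95% interval -0.25 to 0.53), and *Sdhb*, the iron-sulphur subunit, of 0.26 (95% interval -0.19 to 0.71), both with overlap.

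In complex III all 8 nuclear members had fitted values above 0, between 0.13 and 0.44, but all 8 overlapped between genotypes and none had an unadjusted p under 0.05. With libraries scaled by total counts alone, 6 of the 8 were above 0. The symbol rule did not match *Cyc1*, cytochrome c1 of complex III, which is among the electron carriers below. *Cyc1* was at 123.3, 107 and 76.0 CPM in ControlΔEC and 153, 131 and 124.5 CPM in Wt1KOΔEC. Its groups did not overlap (log2 fold change 0.41, edgeR adjusted p = 0.426). *Uqcrc1*, a core subunit, was at 325, 302 and 242 CPM in ControlΔEC and 343, 308 and 299 CPM in Wt1KOΔEC (log2 fold change 0.13, 95% interval -0.24 to 0.49). *Uqcrfs1*, the Rieske iron-sulphur protein, was at 139.6, 88.2 and 90.2 CPM and 130.2, 111 and 126 CPM (log2 fold change 0.20, 95% interval -0.26 to 0.67). In both, the first ControlΔEC library was within or above the Wt1KOΔEC range.

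Complex IV held 2 of the 5 leading nuclear members. *Cox7c*, a small membrane subunit, was at 30.2, 25.2 and 22.1 CPM in ControlΔEC and 39.9, 42.5 and 52.2 CPM in Wt1KOΔEC. The groups did not overlap (log2 fold change 0.80, SE 0.21, edgeR adjusted p = 0.209, DESeq2 adjusted p = 0.0144). *Cox8a*, the ubiquitous form of the smallest subunit, was at 123, 87.7 and 104 CPM in ControlΔEC and at 189, 166 and 156 CPM in Wt1KOΔEC. Again every Wt1KOΔEC library was the higher (log2 fold change 0.70, SE 0.17, edgeR adjusted p = 0.190, DESeq2 adjusted p = 0.00638). *Cox5b* and *Cox6a1* were the other 2 at an unadjusted p under 0.05, with log2 fold changes of 0.54 and 0.44 and edgeR adjusted p of 0.360 and 0.288.

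Several complex IV subunits exist as a widespread form and a second form that is best known from heart and skeletal muscle, lung or testis. The widespread forms made up nearly all of the level per kb in every library. *Cox4i2*, the lung and hypoxia form of subunit 4, was at 3.98, 1.95 and 3.33 CPM in ControlΔEC and 2.12, 1.24 and 1.23 CPM in Wt1KOΔEC. Its share of the *Cox4i1* and *Cox4i2* level per kb was 1.05, 0.735 and 1.07% in ControlΔEC and 0.539, 0.334 and 0.345% in Wt1KOΔEC, without overlap, whereas its CPM overlapped (log2 fold change -1.01, unadjusted p = 0.194). *Cox6a2*, the muscle form of subunit 6A, made up between 0.213% and 1.01% of the *Cox6a1* and *Cox6a2* level per kb in all 6 libraries, with overlap. *Cox7a1*, the muscle form of subunit 7A, stood at 0, 0.0608 and 0.347 CPM in ControlΔEC and 0.281, 0.0561 and 0.119 CPM in Wt1KOΔEC, near the limit of 3 counts, which is 0.0608 to 0.119 CPM in these libraries. *Cox6b2*, the testis form of subunit 6B, was at 0.469, 0.122 and 1.35 CPM and 1.56, 1.24 and 1.54 CPM, which overlapped. Of the widespread forms, *Cox4i1*, *Cox6b1* and *Cox7a2* had log2 fold changes of 0.24, 0.31 and 0.35. *Ndufa4*, now counted with complex IV, was at 53.6, 41.7 and 49.6 CPM in ControlΔEC and 57.2, 57.0 and 61.2 CPM in Wt1KOΔEC (log2 fold change 0.28), and its hypoxia-linked relative *Ndufa4l2* at 2.26, 1.48 and 2.11 CPM and 2.76, 2.36 and 2.02 CPM. *Cox7a2l*, which joins complexes III and IV into supercomplexes, was at 169.7, 147 and 172 CPM in ControlΔEC and 246, 181 and 208 CPM in Wt1KOΔEC, without overlap (log2 fold change 0.38, edgeR adjusted p = 0.378). The pseudogene entry *Cox5b-ps* stayed under 2 CPM in every library.

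In complex V, the leading members encode the c subunit of the rotor ring, for which 3 genes give the same mature protein. *Atp5g2* was at 76.4, 66.6 and 66.2 CPM in ControlΔEC and 128, 110.0 and 119 CPM in Wt1KOΔEC. The groups were well apart, with a log2 fold change of 0.77 (SE 0.15, edgeR adjusted p = 0.114, DESeq2 adjusted p = 7.05e-05). *Atp5g1* was at 51.1, 41.8 and 38.5 CPM in ControlΔEC and 79.0, 70.5 and 73.1 CPM in Wt1KOΔEC. It separated in the same way (log2 fold change 0.76, SE 0.17, edgeR adjusted p = 0.164, DESeq2 adjusted p = 0.00250). The third gene, *Atp5g3*, was at 58.9, 48.4 and 75.9 CPM and 84.9, 66.4 and 74.5 CPM and overlapped (log2 fold change 0.30, 95% interval -0.15 to 0.76). Together the 3 genes gave 248, 208 and 230.3 CPM per kb in ControlΔEC and 390.3, 333 and 358 CPM per kb in Wt1KOΔEC. Of that level *Atp5g3* supplied 24.1, 23.5 and 33.3% in ControlΔEC and 22.0, 20.2 and 21.0% in Wt1KOΔEC, without overlap. These sums and shares leave out counts on pseudogene copies. The pseudogene *Gm10175*, identical to *Atp5g2* over 441 bases, held 37.3% of their joint counts, and with its counts added the log2 fold change of *Atp5g2* was 0.71. Copies of *Atp5g1* held 0.131, 9.79 and 11.2% of the joint counts in ControlΔEC and 3.32, 5.32 and 0.0541% in Wt1KOΔEC. With those added, the log2 fold change of *Atp5g1* was 0.70. *Ndufs6* of complex I was the nuclear member most changed by this step, from 0.26 to 0.66 (edgeR adjusted p = 0.240), with 25.0% of its joint counts on copies.

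The catalytic head of the ATP synthase differed less than the c subunit genes. *Atp5b* was at 2178, 1438 and 1787 CPM in ControlΔEC and 2318, 1978 and 2038 CPM in Wt1KOΔEC (log2 fold change 0.23, 95% interval -0.16 to 0.62). The alpha subunit gene *Atp5a1* was at 747, 609.5 and 809.9 CPM and 917, 863 and 785 CPM (log2 fold change 0.24, 95% interval -0.11 to 0.59). Both overlapped between genotypes. *Atp5d*, the delta subunit of the central stalk, was at 157, 149 and 145 CPM in ControlΔEC and 243, 203 and 205 CPM in Wt1KOΔEC, without overlap (log2 fold change 0.53, edgeR adjusted p = 0.220, DESeq2 adjusted p = 0.00894), which was under the fold limit. *Atp5o*, on the peripheral stalk, had a log2 fold change of 0.51 (edgeR adjusted p = 0.270), and *Atp5k*, a small membrane subunit, of 0.82 at 5.09, 5.07 and 4.82 CPM in ControlΔEC and 10.2, 8.08 and 8.07 CPM in Wt1KOΔEC. *Atp5l*, another small membrane subunit, was the one nuclear member of complex V below 0 (-0.12, 95% interval -0.60 to 0.36).

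**Figure D5:**
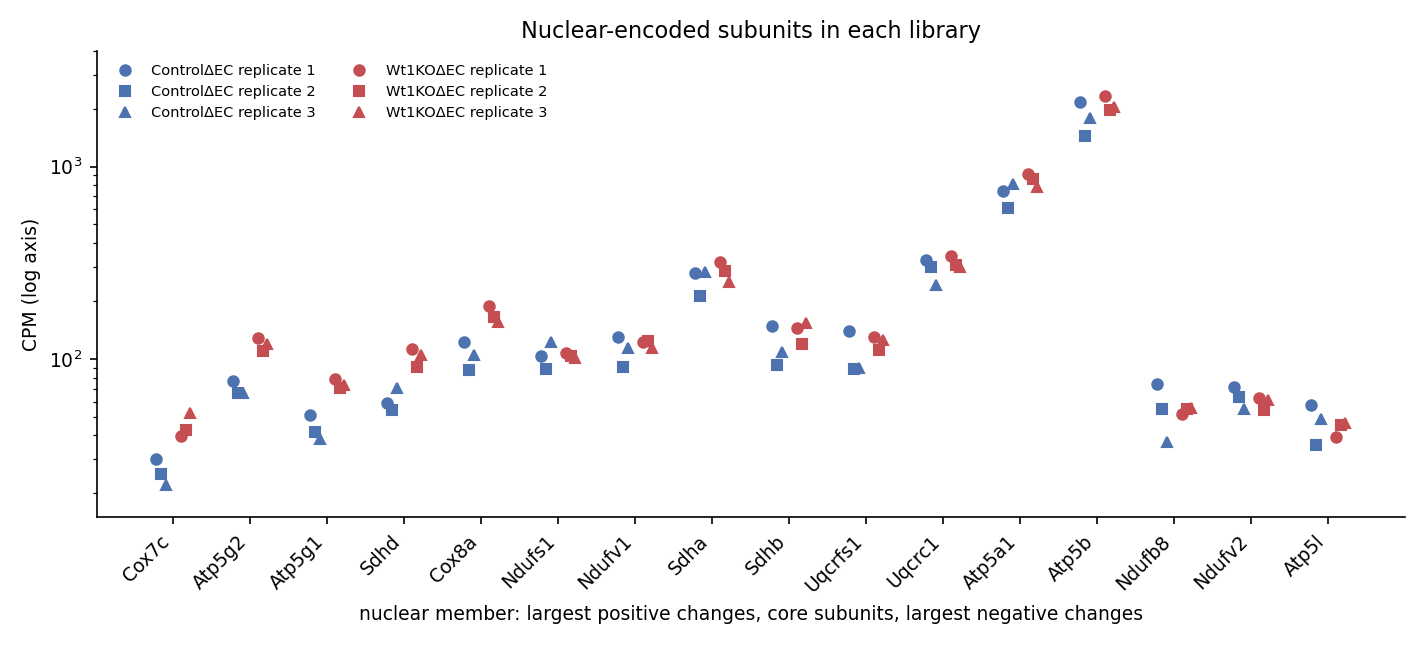
CPM (log scale) in each library of the 5 nuclear members with the largest positive fold change among those at 10 CPM or more, of 8 core or catalytic subunits described above and of *Ndufb8*, *Ndufv2* and *Atp5l*. *Atp5g2*, *Atp5g1*, *Sdhd*, *Cox7c* and *Cox8a* have all 3 Wt1KOΔEC libraries above all 3 ControlΔEC libraries, while *Ndufs1*, *Sdha* and *Atp5b* overlap.

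Shorter nuclear members differed somewhat more than longer ones. The 42 nuclear members with a canonical transcript under 1000 bases had a median log2 fold change of 0.34 and the 42 longer ones of 0.25. Over all genes tested the medians were 0.18 for the 1491 under 1000 bases and -0.04 for the 14747 others. With an offset for length and GC content in the fit, the median of the nuclear members was 0.22 and 9 of 84 rather than 21 were higher at an unadjusted p under 0.05. That was 10.7%, against 5.39% of all genes under the same offset. The median of the mitochondrial members was then -0.77. The count of 21 also depended on single libraries. It was 6 of 84 without the first Wt1KOΔEC replicate (against 3.52% of all genes), 13 without the second (against 4.02% of all genes) and 10 without the third (against 4.13% of all genes). It was 11 without the second ControlΔEC replicate (against 6.46% of all genes), and the median lay between 0.23 and 0.40 throughout.

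Other genes that serve the respiratory chain were taken from 8 lists with 134 genes tested. At the adjusted threshold edgeR and limma-voom called 0 of them, against 12 and 8 of all 16296 genes. DESeq2 called 1 higher and 1 lower, against 2.14% and 2.54% of all genes. At an unadjusted p under 0.05, 7 were higher (5.22%) and 3 lower (2.24%), against 5.96% and 7.12% of all genes. No gene of the 14 for complex I assembly and none of the 17 for pyruvate dehydrogenase and the TCA cycle was among the 10. The medians of these lists were 0.06 and 0.05. Of 19 genes for complex IV assembly (*Pet117* had 0 counts in every library), only *Cox15*, which acts in the synthesis of heme A for complex IV, was among them, at 1.88, 3.14 and 1.87 CPM in ControlΔEC and 10.2, 13.7 and 10.6 CPM in Wt1KOΔEC. All Wt1KOΔEC libraries were higher (log2 fold change 2.32, edgeR adjusted p = 0.108, DESeq2 adjusted p = 1.85e-06). Among 13 genes for assembly of complexes II, III and V it was *Uqcc3* (0.78), and among 20 for electron carriers and coenzyme Q it was *Dhodh* (0.83) and, lower, the glycerol phosphate dehydrogenase *Gpd2* (-0.76, DESeq2 adjusted p = 0.00197). Of 24 genes that copy, transcribe or process mitochondrial DNA and RNA, 1 was among them, *Hsd17b10* of mitochondrial RNase P (0.44), and the median was 0.18. Of 9 nuclear regulators it was *Nrf1*, at 43.4, 38.1 and 43.0 CPM in ControlΔEC and 62.2, 51.1 and 61.5 CPM in Wt1KOΔEC (0.49, edgeR adjusted p = 0.285). The median of these 9 was -0.09. *Nrf1*, *Gabpa* and *Yy1* encode the factors of the motifs counted above. *Gabpa* (-0.16, edgeR unadjusted p = 0.547) and *Yy1* (-0.41, edgeR unadjusted p = 0.248) had fitted values below 0 and overlapped between genotypes. Of 18 genes for mitochondrial membranes and turnover, *Phb* (0.55) and *Bnip3* (0.50) were higher and the fusion genes *Mfn1* (-1.23) and *Mfn2* (-0.46) lower at that threshold.

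Markers of other cells and of handling also moved between genotypes, and their part in the values of the respiratory members was not tested. Of all genes tested, 5.96% were higher and 7.12% lower at an unadjusted p under 0.05. Without overlap, 10.3% of all genes were higher and 8.97% lower. Heart muscle is rich in respiratory messages. Cardiomyocyte markers, 11 of 12 tested, summed to 214 to 291 CPM in ControlΔEC and 186 to 383 CPM in Wt1KOΔEC, with 1 higher at an unadjusted p under 0.05 (*Nppa*) and *Nkx2-5* at 0 in every ControlΔEC library. Fibroblast markers summed to 678 to 982 CPM in ControlΔEC and 1346 to 1553 CPM in Wt1KOΔEC, with 5 of 8 higher. Macrophage markers summed to 273 to 826 CPM in ControlΔEC and 197 to 293 CPM in Wt1KOΔEC, with 5 of 8 lower, and mural cell markers to 465 to 632 CPM in ControlΔEC and 324 to 379 CPM in Wt1KOΔEC, with 4 of 7 lower. Epicardial markers summed to 4.71 to 14.2 CPM in ControlΔEC and 13.6 to 45.9 CPM in Wt1KOΔEC, with 2 of 7 higher, and erythroid markers to 6575 to 14373 CPM in ControlΔEC and 5142 to 8545 CPM in Wt1KOΔEC, with 2 of 9 higher and 2 lower. Among endothelial markers 1 of 9 was higher. The dissociation response genes, immediate early and heat shock genes that rise when tissue is digested, summed to 2231 to 2826 CPM in ControlΔEC and 3342 to 4377 CPM in Wt1KOΔEC, with 7 of 12 higher, and 8 of 12 did not overlap between genotypes.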

How the data were processed

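RNA of mGFP+ cells sorted from the ventricles of E15.5 hearts (about 8000 cells per library as stated in the methods) was made into 6 libraries by an oligo-dT SMART-seq2 protocol with Nextera XT, which does not keep strand, and read in pairs. Per the labels and methods, the authors aligned reads with STAR 2.7.8a and estimated counts per gene with RSEM 1.3.0. The methods name GRCm39 with GENCODE vM27, whereas the submitters' processing notes name GRCm38. 54749 of the 55416 gene identifiers (98.8%) are in GENCODE vM39, from which gene positions and lengths on GRCm39 were taken. The deposited table holds these estimated counts as whole numbers for every gene, not normalized, with no unused column of values per sample, and RSEM can split reads between a gene and a near-identical copy. Totals were 44779020, 44736496 and 27211308 counts in ControlΔEC and 42704156, 37015947 and 26037324 in Wt1KOΔEC, so that 3 counts stand for 0.0608 to 0.119 CPM.

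Counts were tested with the quasi-likelihood test of edgeR 4.0.16 in R 4.3.3 with TMM scaling, on genes that reached 10 counts in 2 or more libraries. P-values were two-sided and adjusted by the Benjamini-Hochberg method over all 16296 genes. A gene was called at an adjusted p under 0.05 with a log2 fold change beyond 0.58 in either direction. The replicates are separate biological samples per the labels, but embryos per library are not given in the sources used here. DESeq2 1.42.0, limma-voom (limma 3.58.1), other scalings and filters, a length and GC offset, a replicate block, and leaving out each library in turn were tried as alternatives. Merging pseudogene copies (at least 97% identity over at least 100 bases) and leaving libraries out of the shares of counts were added after the data were seen. The count test was first tested on simulated data.

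Members, gene lists and markers were chosen with earlier results of these data known, so no test over a list was made and lists are described by counts and medians. Named were all mitochondrial members, the nuclear members past the threshold, the 5 with the largest positive and the 5 with the largest negative fold change at a mean of at least 10 CPM (4 were below 0), the core and catalytic subunits, the isoform pairs, and *mt-Rnr1*, *mt-Rnr2*, *Wt1* and *Rn18s*. A single gene among those this rule names was left out and is not reported here. Other members named at an unadjusted p under 0.05, and pathway genes, were picked after their values were seen. Levels are compared between genes only per kb of the canonical transcript. Motifs were searched in RefSeq promoters of GRCm38.p6.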

Additional observations from a re-analysis of the deposited data

How the results depend on the processing

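The median of the mitochondrial members stayed below 0 in each alternative tried, at -1.36 to -0.73 with each library left out. The share of counts ratio ran from 0.333 to 0.509 and the count at an unadjusted p under 0.05 from 7 to 10 with each library left out, and 0 to 1 were higher. The nuclear result was more dependent on the processing. Of 84 nuclear members, 21 were higher at an unadjusted p under 0.05, against 5.96% of all genes. The count was 7 (8.33%, against 3.47% of all genes) with scaling by library size only, 12 (14.3%, against 4.92%) with no filter on counts, 12 of the 81 tested (14.8%, against 6.75%) with at least 10 counts in every library, and 9 (10.7%, against 5.39%) with the length and GC offset. With each library left out it was 6 to 23, or 7.14% to 27.4%, against 3.52% to 7.68% of all genes. The median of the nuclear members was 0.14 with library size only, where the median of all genes also shifted, and 0.23 to 0.40 with each library left out. Their share of all counts had a ratio of 1.09, or 1.04 to 1.13 with each library left out, and the ratio was 1.20 over protein-coding counts. Members past the adjusted p and fold limit numbered 0, but 12 with DESeq2, 8 with no filter and 2 with 10 counts in every library (0 to 0 with each library left out). Over all genes, the same call was made for 12 genes with edgeR, 759 with DESeq2, 296 with no filter, 113 with 10 counts in every library, 5 with the replicate block, 7 with the length and GC offset and 2 to 41 with each library left out. The causes were not tested.

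Of 42 named members, 31 kept their sign in every alternative. *mt-Nd3* (-0.31) and *mt-Nd4l* (-0.27) changed sign with pseudogene copies merged, *Ndufs1* with limma-voom (0.0163), upper-quartile scaling (0.00722) and the length and GC offset without (0.0412) or with (0.0415) the replicate block, and *Ndufv1* (-0.0348), *Sdha* (-0.00794) and *Uqcrc1* (-0.0216) with library size only. With each library left out, values ran from -0.39 to 0.75 for *mt-Nd3*, -0.28 to 0.0526 for *Atp5l*, -0.19 to 0.00643 for *Ndufv2*, -0.25 to 0.24 for *Ndufb8*, -0.12 to 0.12 for *Ndufs1*, -0.0174 to 0.24 for *Ndufv1*, -0.68 to 0.31 for *Cox6a2* and -0.60 to 2.20 for *Cox7a1*.

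The correlations of the deviations of same-numbered libraries were 0.0566, 0.0045 and 0.0201. Those of differently numbered libraries ran from -0.0429 to 0.025. With 3 libraries per genotype, such values cannot decide whether replicate numbers pair the samples. With the replicate block, 14 nuclear members were higher at an unadjusted p under 0.05 (16.7%, against 5.62% of all genes), or 9 with the length and GC offset as well (10.7%, against 5.15%), and *Ndufb8* changed sign (0.0218). *mt-Nd4l*, *Cox7a1*, *Cox6b2* and *Cox5b-ps* had under 10 counts in at least 1 library, so their fold changes are imprecise.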
